A study of Mus musculus with 2 samples.

Results

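The complement genes C1qa, C1qb, C1qc, C1ra, C1s1, C3, C4b, C7 and Serping1 were chosen by symbol and described in macrophage-like, fibroblast-like and mast cell-like cells grown from mouse aorta. These are 9 of the 32285 genes in the deposited table, and all 9 had transcripts in the library. Aortas were dissected from 2 mice (male, strain C57BL/6J, 12 weeks old), and no genotype or treatment beyond the culture is given in the labels. Colonies grew in semi-solid methylcellulose medium over 14 days, and macrophage colonies (CFU-M, colony-forming unit macrophage) were taken, dispersed and sorted for viability by exclusion of DAPI. MULTI-seq, which marks the cells of a suspension with a lipid-anchored oligonucleotide, was used before the cells were pooled for 1 droplet library, and 3 tags named Cafum, Matrigel and Macrophages were found in the table. The separate library of tags was not analysed here. With 1 library there is no replicate check of any difference below, no test was made, and all intervals are 95% intervals that cover counting error only.

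Complement is a cascade of plasma and tissue proteins that marks particles for uptake by phagocytes and can form pores in membranes. In the classical pathway C1q, built of A, B and C chains, binds a target and carries the proteases C1r and C1s. Of these, C1s cleaves C4 and C2, whose pieces form an enzyme that cleaves C3. C7 takes part in the membrane attack complex at the end of the cascade, and the C1 inhibitor encoded by Serping1 blocks C1r and C1s. Most circulating complement comes from the liver, but C1q is known mainly as a product of macrophages and related cells, and fibroblasts are known to make several other components.

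After filtering, 26620 of 34813 barcodes were kept, none of them listed more than once, with 1001 to 243243 UMIs (unique molecular identifiers, each standing for 1 captured RNA molecule) per cell. Cells were clustered without any complement gene, and classes were named from marker lists. The macrophage-like class was 1 cluster of 1939 cells (7.28% of cells) with a median of 7365 UMIs, the fibroblast-like class 1 cluster of 3869 cells (14.5%) with a median of 30070 UMIs, and the mast cell-like class 6 clusters with 20555 cells (77.2%) and a median of 11228 UMIs. The label of macrophage colony cells thus covered a library in which most cells had mast cell markers. A cluster of 116 cells that passed 5 of 6 fibroblast markers but was led by glial genes such as Cdh19, and 141 shallow cells, stayed unnamed. All 7 macrophage, all 6 fibroblast and all 7 mast cell markers were at 10 CPM or more in their own class (CPM, UMIs per 1000000 gene UMIs summed over the cells of a class). Mast cell markers were also present elsewhere, with a summed level of 60890 CPM in the mast cell-like, 8251 CPM in the macrophage-like and 4832 CPM in the fibroblast-like class, and the part of shared RNA and of undetected doublets in the values below was not tested. Of the 18 marker lists, the erythroid, megakaryocyte and neutrophil lists had summed levels of 2368, 2984 and 553.5 CPM in the macrophage-like class. Only 2 of 5, 2 of 5 and 3 of 5 genes of these lists reached 10 CPM there. The megakaryocyte list includes Pf4, which is named below among the genes most like C1qa. The monocyte list had 505.9 CPM in the fibroblast-like and 208.5 CPM in the macrophage-like class, and the dendritic cell list 182.9 CPM in the latter. The endothelial list reached at most 9.75 CPM in any class. Xist, which is transcribed from the inactive X chromosome of female cells, had 352 CPM in the macrophage-like, 724 CPM in the fibroblast-like and 379 CPM in the mast cell-like class, and the Y-linked gene Ddx3y had 59.9, 31.0 and 18.4 CPM in the same classes. The labels name male mice only, and where the Xist transcripts came from was not tested.

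On the GRCm38 assembly 5 of the 9 genes lie in 2 compact groups. C1qa (chromosome 4, 136895917–136898803), C1qc (136889804–136893065) and C1qb (136880129–136886187) stand side by side on the minus strand, with 2851 bp between C1qa and C1qc and 3616 bp between C1qc and C1qb. C1ra (chromosome 6, 124512405–124523443, plus strand) and C1s1 (124530345–124542359, minus strand) point towards each other across 6901 bp. C1s1 overlaps Gm16567 on the other strand, and the use of strand in counting is not given in the sources used here. C4b (34728380–34743882) and C3 (57203970–57228136) are both on the minus strand of chromosome 17, C7 is on chromosome 15 (4988762–5063740, minus strand) and Serping1 is on chromosome 2 (84765387–84775444, minus strand).

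The promoter windows of 4 genes are printed because they stand before genes that were high in different classes and do not overlap an annotated exon of their gene. RefSeq start windows (GRCm38.p6) were found for 6 of the 9 genes, namely C1qb, C1qc, C1ra, C1s1, C3 and C7, and C1qa, C4b and Serping1 had none. Each line gives the 250 bases before the start, on the strand of the gene, and capitals mark matches to searched motifs. The coordinates are chr4:136886201-136886450 for C1qb, chr6:124542360-124542609 for C1s1, chr17:57228137-57228386 for C3 and chr15:5063774-5064023 for C7, all on the minus strand.
C1qb: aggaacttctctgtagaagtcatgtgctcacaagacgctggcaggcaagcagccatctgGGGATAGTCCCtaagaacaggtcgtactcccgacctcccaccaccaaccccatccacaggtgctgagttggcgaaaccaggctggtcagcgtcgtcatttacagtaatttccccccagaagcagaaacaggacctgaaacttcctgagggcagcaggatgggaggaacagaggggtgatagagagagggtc
C1s1: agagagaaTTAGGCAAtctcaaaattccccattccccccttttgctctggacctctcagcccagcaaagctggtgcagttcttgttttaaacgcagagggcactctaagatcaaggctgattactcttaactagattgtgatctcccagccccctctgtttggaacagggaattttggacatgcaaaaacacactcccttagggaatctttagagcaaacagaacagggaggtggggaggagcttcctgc
C3: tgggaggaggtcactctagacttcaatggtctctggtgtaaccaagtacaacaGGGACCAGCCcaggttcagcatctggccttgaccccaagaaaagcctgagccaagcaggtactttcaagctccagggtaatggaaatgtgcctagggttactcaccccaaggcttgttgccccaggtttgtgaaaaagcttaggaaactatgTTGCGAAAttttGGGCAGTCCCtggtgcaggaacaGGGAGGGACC
C7: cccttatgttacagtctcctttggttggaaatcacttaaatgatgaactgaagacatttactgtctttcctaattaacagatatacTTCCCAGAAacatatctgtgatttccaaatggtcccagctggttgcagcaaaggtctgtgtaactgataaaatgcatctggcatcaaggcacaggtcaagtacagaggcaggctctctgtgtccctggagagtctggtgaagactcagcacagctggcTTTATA

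Motifs were searched on both strands in these windows and in all 32851 RefSeq windows of the same length. The window of C3 held a C/EBP-like match, TTGCGAAA, 38 to 45 bases before the start, and that of C1s1 held TTAGGCAA, 235 to 242 bases before the start, which matches on the opposite strand. The letters searched for C/EBP were TTGCNNAA, found in 9.56% of all windows. The C7 window held TTCCCAGAA, a match to the letters TTCNNNGAA of STAT factors (7.02% of all windows), and TTTATA on its last bases, which is TATAAA on the opposite strand (12.4% of all windows). Matches to an NF-kB-like motif, GGGA and CC with any 4 bases between them, were in the windows of C1qb, C1qc and C3 and in that of another start of C1s1, which is not printed, and in 17.6% of all windows. The C1qb window held 1 match on each strand, which overlap, and the C3 window held 3 separate matches. The letters GAGGAAG of PU.1, a transcription factor of macrophages, matched only in the C1qc window, on the opposite strand as CTTCCTC, and in 10.6% of all windows. No match to the AP-1 letters TGANTCA, the MAF letters TGCTGAC, the E-box CACGTG or an interferon-response core was found in the 7 windows, which says only that these letters are not there.

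The 9 genes divided between the classes by component. The 3 C1q chains and C4b were highest in the macrophage-like class, and C1ra, C1s1, C3, C7 and Serping1 were highest in the fibroblast-like class. At a difference of 4 times or more over both other classes and a level of 10 CPM or more, which all 9 reached in some class, 4 of the 9 genes were called for macrophage-like cells, against 6.34% of the 10142 genes of at least 10 CPM in any class. For fibroblast-like cells 5 of the 9 were called, against 9.95% of the same genes. For mast cell-like cells 0 of the 9 were called, against 3.41%. Since the genes were chosen with results of these data known, the shares are set side by side as a description.

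**Figure D1:**
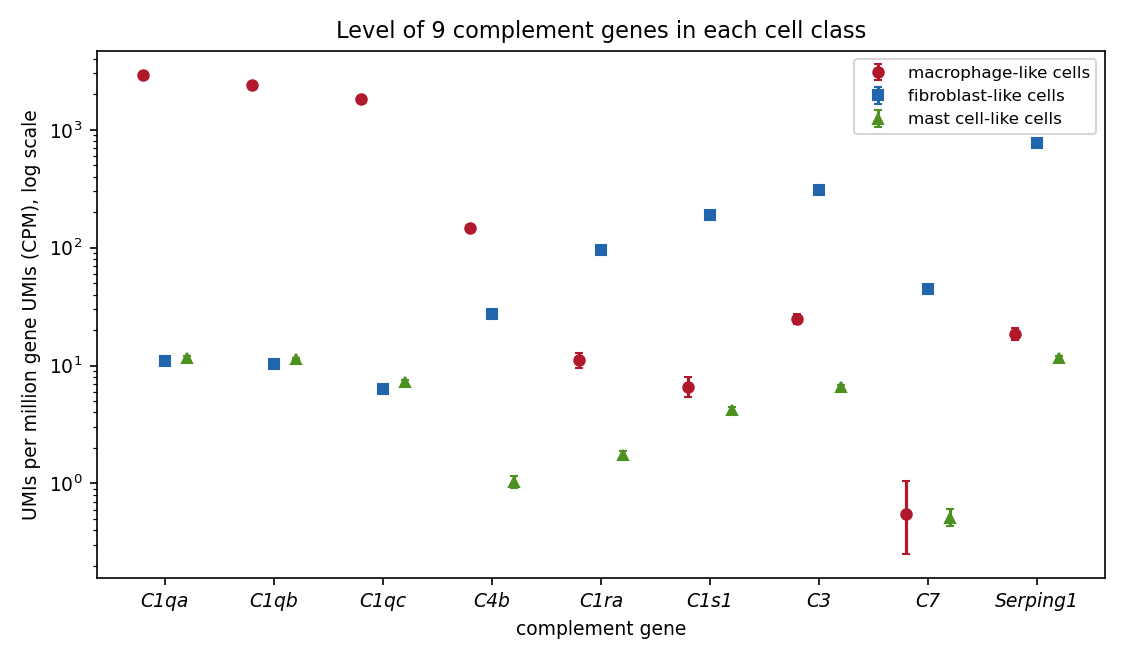
Level of the 9 complement genes in macrophage-like (circles), fibroblast-like (squares) and mast cell-like cells (triangles), in CPM on a log axis, with exact Poisson 95% intervals. The C1q chains and C4b are highest in the macrophage-like class, at 148 to 2904 CPM, and the other 5 genes in the fibroblast-like class, at 44.2 to 779 CPM.

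C1qa had 2904 CPM (2878–2930) in the macrophage-like class, 11.01 CPM (10.4–11.6) in the fibroblast-like class and 11.7 CPM (11.3–12.1) in the mast cell-like class. C1qb had 2395, 10.3 and 11.3 CPM in the same order, and C1qc had 1817, 6.38 and 7.28 CPM. Each of these chains is needed for the assembled C1q molecule. The levels in the macrophage-like class were above those in the fibroblast-like class by 264 times for C1qa (249.6–279), 233 times for C1qb (220.5–247) and 285 times for C1qc (265–307). These leads depend on doublet removal: with called doublets kept C1qa had 1642 and 44.1 CPM, C1qb 1347 and 36.2 CPM and C1qc 1042 and 27.9 CPM in these classes. With only Scrublet doublets removed, an alternative chosen after seeing the data, C1qa had 2417 and 17.3 CPM. The counting intervals of C1qa in fibroblast-like and mast cell-like cells overlapped.

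To compare detection at equal depth, cells were thinned to 5500 UMIs, which left 1394 macrophage-like, 3742 fibroblast-like and 19147 mast cell-like cells and excluded 545, 127 and 1408 shallower ones. C1qa was then found in 96.9% of macrophage-like cells (95.9–97.8), C1qb in 96.8% and C1qc in 96.3%. Before thinning the shares were 95.4%, 94.7% and 94.0%. All 3 chains were found in 95.7% of thinned macrophage-like cells, 2 chains in 1.00%, 1 chain in 0.933% and none in 2.37%. The number of C1q UMIs per thinned cell had a median of 42, and the tenth and ninetieth percentiles were 16 and 65. Among macrophage-like sub-clusters, numbered by size as M1 to M7, the same percentiles were 32 and 70 in M1, 29 and 63 in M2 and 26 and 68 in M3. They were lower in M4, which had mast cell genes among its leading genes, at 8 and 36. C1q was thus found in nearly all macrophage-like cells, and the spread over the whole class was wider than within its 3 largest sub-clusters.

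C1qa made up 40.8% of C1q UMIs in the macrophage-like class, C1qb 33.65% and C1qc 25.5%. In fibroblast-like cells the chains had 39.8%, 37.1% and 23.1%, and in the mast cell-like class 38.6%, 37.3% and 24.1%. These are 3′ UMI counts that are not divided by length, and capture may differ between genes, so they do not give the ratio of proteins. Over thinned macrophage-like cells the log counts of the chains correlated with Pearson's r of 0.80 for C1qa and C1qb, 0.810 for C1qa and C1qc and 0.742 for C1qb and C1qc, over 1394 cells that share a library. Within the 3 largest sub-clusters the same values were 0.440 to 0.484 in M1, 0.310 to 0.445 in M2 and 0.656 to 0.754 in M3. In fibroblast-like and mast cell-like cells only 0.2405% and 0.0731% of cells had all 3 chains.

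**Figure D2:**
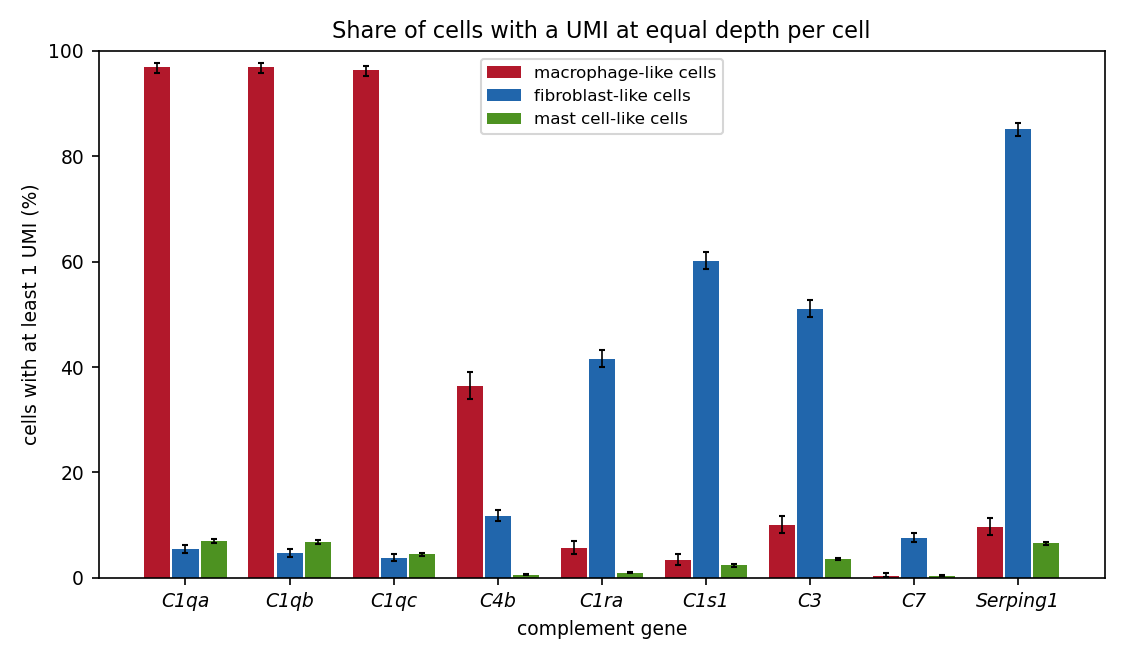
Share of cells with at least 1 UMI of each gene after every cell was thinned to 5500 UMIs, in %, with exact Clopper-Pearson 95% intervals. The C1q chains were found in over 96% of macrophage-like cells, Serping1 in 85.1% and C7 in 7.54% of fibroblast-like cells.

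C4b, whose product is cleaved by C1s and is deposited on the target, had 148 CPM (142–153.5) in the macrophage-like class, 27.2 CPM (26.3–28.2) in the fibroblast-like class and 1.02 CPM (0.908–1.15) in the mast cell-like class. This is the member whose highest class led by the smallest margin, 5.41 times over fibroblast-like cells (5.13–5.71). It was found in 36.4% of thinned macrophage-like cells (33.9–39.0), 11.8% of fibroblast-like cells (10.8–12.9) and 0.585% of mast cell-like cells. C4b and its neighbour C4a are near-identical copies, and reads could be split between them. C4a had 0.307 CPM in the macrophage-like and 0.184 CPM in the fibroblast-like class. With called doublets kept, C4b was at 86.1 CPM in the macrophage-like and 24.2 CPM in the fibroblast-like class and was no longer 4 times higher.

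C4b was unevenly spread among macrophage-like sub-clusters, which were again made without complement genes. It had 260.1 CPM (243.5–278) in M1 and 245 CPM (231–260.5) in M2, which hold 539 and 528 cells, and 23.5 CPM (18.8–28.9) in M3, which holds 506 cells. M3 was led by Gpnmb, Mmp13 and Mmp12 and had 5057 CPM of H2-Ab1, a class II antigen presentation gene, and 70.2 CPM of Lyve1, a marker of resident vascular macrophages. M1 had Cxcl13 and the haemoglobin genes Hba-a1, Hba-a2, Hbb-bs and Hbb-bt among its leading genes, and M2 was led by Mctp2, Raver2 and Thbd. The part of erythroid RNA in M1 was not tested. M1 and M2 had 2429 and 1757 CPM of H2-Ab1 and 881 and 946 CPM of Lyve1. C4b was found in 6.765% of thinned M3 cells (4.34–9.98) and in 55.2% and 56.15% of M1 and M2 cells. M1 and M2 held 38.0% and 44.9% of all C4b UMIs of the class with 21.5% and 26.96% of its gene UMIs, while M3 held 3.67% with 23.0%. The C1q chains did not follow this pattern, as C1qa had 3127 CPM in M3 against 3772 CPM in M1 and 3476 CPM in M2. When the sub-clusters were made with another random seed, which was chosen after seeing the data, the one led by Mmp13 had 19.0 CPM of C4b, and those with high Lyve1 had 244 and 261 CPM.

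Other macrophage-like sub-clusters had lower C1q. M4 (182 cells) had the mast cell genes Tpsb2, Hdc and Kit among its leading genes, 12990 CPM of Cma1, a mast cell protease, and 1589 CPM of C1qa. M5 (122 cells) was led by the neutrophil and monocyte genes Camp, S100a9 and Ngp and had 1296 CPM of C1qa. No C1q chain was found in 19.2% of its thinned cells, against 1.47% in M3. M6 (32 cells) was led by lymphoid genes and had 385 CPM of C1qa, and M7 (30 cells) was led by cell-cycle genes and had 2336 CPM. The part of mast cell RNA in M4 and of other cell types in M5 and M6 was not tested. Without M4 and the fibroblast-like sub-cluster F3, in which mast cell markers were among the leading genes, C4b was 158 CPM in the macrophage-like and 28.8 CPM in the fibroblast-like class.

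**Figure D3:**
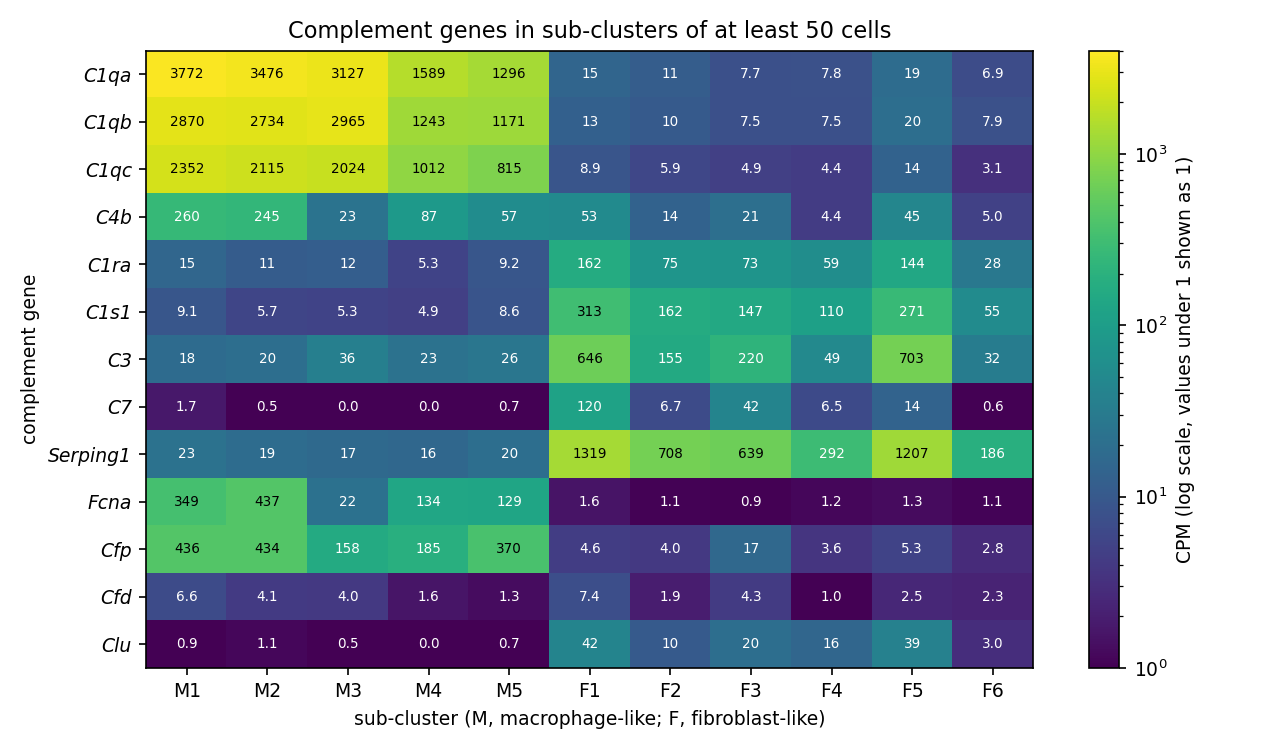
Level of the 9 genes and of 4 other complement genes in sub-clusters of at least 50 cells, in CPM on a log colour scale, with each value printed. C4b and Fcna are low in M3 and high in M1 and M2, C3 is high in F1 and F5 and low in F4 and F6, and C7 is highest in F1.

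Transcripts of the C1r and C1s proteases were highest in the fibroblast-like class. C1ra had 95.05 CPM (93.3–96.8) there, 11.1 CPM (9.56–12.9) in the macrophage-like class and 1.74 CPM in the mast cell-like class. C1s1 had 189.6 CPM (187–192), 6.635 CPM (5.44–8.01) and 4.22 CPM in the same order. Fibroblast-like cells led macrophage-like cells by 8.55 times for C1ra (7.38–9.955) and by 28.6 times for C1s1 (23.65–34.85). The near-identical copies C1rb and C1s2 had 0.134 and 0.251 CPM in the fibroblast-like class, and reads could be split between copies. C1ra was found in 41.6% of thinned fibroblast-like cells (40.0–43.2) and C1s1 in 60.2% (58.6–61.8). Both were found in 1128 of 3742 cells, 1.20 times the number given by the product of both shares. Within the fibroblast-like sub-clusters F1 to F6, described below, this ratio lay between 1.03 (F1) and 1.29 (F4).

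Serping1, the inhibitor of these proteases, had 779 CPM (774–784) in the fibroblast-like class, 18.55 CPM (16.5–20.8) in the macrophage-like class and 11.6 CPM (11.2–12.0) in the mast cell-like class. It was found in 85.1% of thinned fibroblast-like cells (83.9–86.2), 9.61% of macrophage-like cells and 6.52% of mast cell-like cells. Transcripts of both the proteases and their inhibitor were thus most abundant in the fibroblast-like class. Those of the C1q chains were most abundant in the macrophage-like class. Cells with C1s1 and Serping1 together numbered 2068, 1.08 times the product of both shares. Within sub-clusters this ratio was 1.0 in F1 and 1.01 in F2, and at most 1.36 (F6) among F1 to F6. Of the 5 genes that were highest in the fibroblast-like class, a thinned cell of this class had a median of 3, all 5 were found in 2.94% of cells and none in 7.56%.

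C3, on which all activation routes meet, had 308 CPM (305–311.5) in the fibroblast-like class, 24.8 CPM (22.5–27.4) in the macrophage-like class and 6.57 CPM (6.27–6.88) in the mast cell-like class. The lead of fibroblast-like over macrophage-like cells was 12.4 times (11.3–13.7). C3 was found in 51.0% of thinned fibroblast-like cells (49.4–52.7), 9.97% of macrophage-like cells (8.45–11.7) and 3.55% of mast cell-like cells. In 2.44% of thinned macrophage-like cells it had 2 or more UMIs, against 0.430% for Serping1. For C1ra no such cell was found among 1394. With 3 counts of the total taken as the limit for a count of 0, this allows a share of up to 0.215%. Among macrophage-like sub-clusters of over 100 cells C3 ranged from 18.0 CPM in M1 to 36.3 CPM in M3.

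C7, a subunit of the membrane attack complex, had 44.2 CPM (43.0–45.4) in the fibroblast-like class, 0.553 CPM (0.253–1.05) in the macrophage-like class and 0.514 CPM (0.433–0.606) in the mast cell-like class. Only 9 UMIs of C7 lay in the macrophage-like class, so its level there has a wide interval. It was found in 7.54% of thinned fibroblast-like cells (6.71–8.43), so most fibroblast-like cells had none at this depth. The lead of fibroblast-like cells over macrophage-like cells was 79.9 times (42.1–175).

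Among fibroblast-like sub-clusters, numbered by size as F1 to F8, C7 was concentrated in F1 (1056 cells). F1 was led by C7 itself, which had no part in the clustering, and by Kctd16 and Abi3bp, and had 120.2 CPM (116–124) of C7. The level was 42.1 CPM in F3, in which mast cell genes led, 14.0 CPM in F5, 6.70 CPM in F2, 6.48 CPM in F4 and 0.644 CPM (0.236–1.401) in F6. F1 held 73.5% of the C7 UMIs of fibroblast-like cells with 27.01% of their gene UMIs. C7 was found in 16.0% of thinned F1 cells (13.9–18.4), so it was not found in most cells of this sub-cluster either. The sub-cluster with C7 among its leading genes under the other random seed had 919 cells and 139.8 CPM.

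C3 had 646.5 CPM (638–655) in F1 and 703 CPM (679–727) in F5, 220 CPM (214–226) in F3, 155 CPM (150.4–159) in F2, 49.45 CPM (46.2–52.8) in F4 and 32.4 CPM (28.9–36.3) in F6. F5 (447 cells) was led by H19 and Adh1, F2 (927 cells) by Timp3, Cck and Postn, F4 (450 cells) by Dlk1, a gene of immature stromal cells, and F6 (211 cells) by cell-cycle genes such as Hmmr and Cenpf. Serping1 was likewise high in F1 and F5, at 1319 and 1207 CPM, lower in F2 and F3, at 708 and 639 CPM, and lowest in F4 and F6, at 292 and 186 CPM. C1s1 had 313, 271, 162, 147, 110.1 and 55.4 CPM in F1, F5, F2, F3, F4 and F6, and C1ra had 162, 144.5, 74.6, 72.7, 58.5 and 27.8 CPM. All 4 genes were thus highest in F1 and F5 and lowest in F4 and F6 among these 6 sub-clusters, and C3 spanned the widest range. Depth differed between them, with a median of 9412 UMIs per cell in F5 and 28621 in F1. The median was 31433 in F2, 31545 in F3, 37955.5 in F4 and 42087 in F6. The part of depth in these levels was not tested.

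The smallest fibroblast-like sub-clusters stood apart in other components. F8, 21 cells led by Cfd and the adipocyte gene Adipoq, had 513.5 CPM of C4b (448–586). The level was 4.36 to 52.7 CPM in F1 to F6 and 121.8 CPM (97.6–150.3) in F7. C4b was found in 83.3% of the 18 thinned cells of F8 (58.6–96.4). Under the other random seed these cells did not form a sub-cluster of their own. The 27 fibroblast-like cells with 5 or more UMIs of Adipoq, a group formed after seeing the data, had 381 CPM of C4b (339–426.5), and without them C4b in the fibroblast-like class was 24.9 CPM. F7, 24 cells led by genes that include the mesothelial gene Lrrn4, had 1855 CPM of C3 (1757–1958) and 854 CPM of Clu, which encodes clusterin, a chaperone that binds the terminal complex. What these 2 small sub-clusters are was not tested.

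The level of each gene outside its highest class was divided by that in its highest class and set beside the same value for the class markers, which gives the scale of RNA found outside its class. In fibroblast-like cells the C1q chains stood at 0.00351 to 0.00428 of their macrophage-like level, and the 7 macrophage markers at 0.00220 (Mrc1) to 0.117 (Mertk). In mast cell-like cells the chains stood at 0.00401 to 0.00471 and the markers at 0.00212 to 0.0141. C1q in both classes lay within the range of the macrophage markers there and is not read as expression. At equal depth C1qa was found in 5.505% of fibroblast-like and 6.98% of mast cell-like cells, and the macrophage marker Mrc1 in 3.47% and 4.62%.

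C4b in the fibroblast-like class was at 0.185 of its macrophage-like level (0.175–0.195), above all 7 macrophage markers. In mast cell-like cells C4b was at 0.00694, below the highest marker. Among genes highest in the fibroblast-like class, C1ra in the macrophage-like class stood at 0.117 (0.1004–0.1355) and C3 at 0.0805 (0.0728–0.0888), both above all 6 fibroblast markers, which lay between 0.0175 (Pdgfra) and 0.0355 (Lum). C1s1 stood at 0.0350 (0.0287–0.0423), an interval that includes the value of Lum. Serping1 at 0.0238 (0.0212–0.0267) lay within the markers' range, and C7 at 0.0125 (0.00572–0.0238) below or within it. In mast cell-like cells the 5 genes stood at 0.0116 (C7) to 0.0223 (C1s1), where the fibroblast markers lay between 0.0126 and 0.0233.

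**Figure D4:**
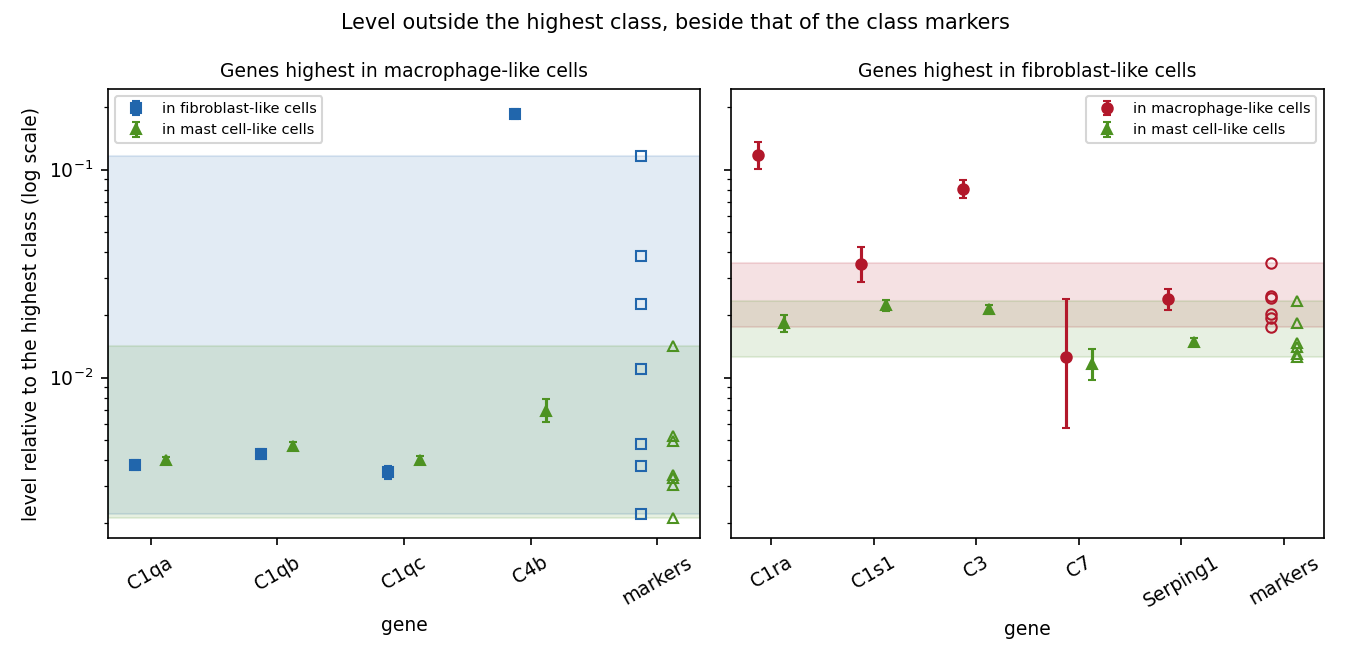
Level of each gene outside its highest class as a share of that in its highest class, on a log axis, with 95% counting intervals, beside the same value for the class markers (open symbols, whose range is shaded). C4b in the fibroblast-like class, at 0.185, and C1ra and C3 in the macrophage-like class, at 0.117 and 0.0805, lie above all markers.

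The tags split the classes. A tag was called at 2 times its background, or 1.4 times for Cafum, and barcodes with more than 1 tag had been removed. Of the macrophage-like cells 95.2% carried the Macrophages tag, of the fibroblast-like cells 63.9% carried the Matrigel tag and 27.01% none, and of the mast cell-like cells 77.6% carried the Cafum tag. Class and tag therefore cannot be told apart for most cells. Within fibroblast-like cells C3 had 277 CPM with the Matrigel tag, 238 CPM with the Cafum tag, 350.1 CPM in the 42 cells with the Macrophages tag and 426 CPM with no tag, so C3 was present in fibroblast-like cells of each tag. C1qa in the fibroblast-like class was 275.5 CPM (248–305) in the 42 cells with the Macrophages tag and 7.75 to 8.16 CPM in the others. In mast cell-like cells C1qa was 24.4 CPM (15.3–37.0) in the 95 cells with that tag and 11.3 CPM with the Cafum tag. It was 20.7 CPM (11.02–35.4) in the 60 mast cell-like cells with the Matrigel tag and 13.4 CPM with no tag. Higher C1qa thus moved with the Macrophages tag in fibroblast-like cells. In mast cell-like cells the intervals of the Macrophages and Matrigel tags overlapped. The part of doublets and of RNA shared in the suspension with the Macrophages tag was not tested.

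Mast cell-like cells had at most 13.2 CPM of any of the 9 genes in any of their clusters. Over the 6 mast cell-like clusters C1qa ranged from 7.82 to 13.2 CPM, Serping1 from 9.965 to 12.7 CPM and C3 from 5.82 to 7.03 CPM. C1ra lay between 0.980 and 1.99 CPM and C4b between 0.843 and 1.155 CPM. The lowest value of each of these 5 genes was in a cluster led by genes of dividing cells, either Cenpa or histone genes.

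Of 47 other complement genes, 25 reached 10 CPM in a class. Of these, 9 were called for macrophage-like cells, 4 for fibroblast-like cells and 2 for mast cell-like cells, against 6.34%, 9.95% and 3.41% of all genes of that level. By group, receptors gave 6 of the 9 macrophage-like calls among 9 tested receptors. These included C3ar1, the receptor of C3a, at 351 CPM in the macrophage-like and 3.055 CPM in the fibroblast-like class, and C5ar1, the receptor of C5a, at 389 and 1.48 CPM. The integrin subunits Itgam and Itgb2 of complement receptor 3 had 153 and 94.2 CPM in the macrophage-like class, and 0.695 and 1.10 CPM in the fibroblast-like class. In the mast cell-like class C3ar1 had 22.3 CPM and was found in 10.8% of thinned cells, and its ratio to the macrophage-like level, 0.0635, was above those of all 7 macrophage markers. C5ar2, another C5a receptor, had 21.6 CPM in the macrophage-like and 16.2 CPM in the mast cell-like class, a value named after it was seen.

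Among the genes that start the lectin pathway Fcna, a ficolin that overlaps Fcnaos on the other strand, had 234 CPM in the macrophage-like and 1.18 CPM in the fibroblast-like class. Its level, like that of C4b, was low in M3 (21.9 CPM) and high in M1 and M2 (349 and 437 CPM). Colec12, a scavenger receptor of the collectin family, had 398 CPM in the fibroblast-like and 167 CPM in the macrophage-like class. C2, the partner of C4 in the classical pathway's enzyme, was highest in the mast cell-like class at 60.5 CPM, with 35.3 CPM in the fibroblast-like and 18.9 CPM in the macrophage-like class. Within the mast cell-like class C2 was unevenly spread, from 30.7 CPM in the cluster led by histone genes to 112 CPM in the one led by Mrgprb1 and Mrgprb2, receptors of connective tissue mast cells.

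Of the alternative pathway Cfp, encoding properdin, had 318 CPM in the macrophage-like, 65.25 CPM in the mast cell-like and 6.58 CPM in the fibroblast-like class. In mast cell-like cells this was 0.2055 of the macrophage-like level, above all 7 macrophage markers, of which the highest was 0.0141. Cfp was found in 26.5% of thinned mast cell-like cells. Values are given for listed genes of 50 CPM or more in a class, and Cfd, Clu, C6 and C9 were added after their values were seen. Cfd, the protease that starts the alternative pathway's enzyme, reached 18.8 CPM in the fibroblast-like class, where it was 4166 CPM in F8 and at most 7.38 CPM in F1 to F7. The terminal genes C6 and C9 had 13.6 and 9.83 CPM in the macrophage-like class, whereas C7 was highest in the fibroblast-like class.

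Among the regulators Cd55, which speeds the decay of C3-cleaving enzymes, had 716 CPM in the mast cell-like, 107 CPM in the macrophage-like and 60.5 CPM in the fibroblast-like class. Its values outside mast cell-like cells, 0.1495 and 0.0844 of that level, lay in the range of the mast cell markers there, 0.122 to 0.154 and 0.0714 to 0.0856. Csmd1, a long gene with complement-control domains, had 1201 CPM in the fibroblast-like class, but whether reads in introns were counted is not given in the sources used here, and Gm16346 and Gm16347 lie within it on the other strand. In the order macrophage-like, fibroblast-like, mast cell-like, Cd93 had 111, 11.4 and 129.9 CPM, Cr1l had 72.7, 55.3 and 76.85 CPM, and C1qbp had 39.6, 90.2 and 73.7 CPM.

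**Figure D5:**
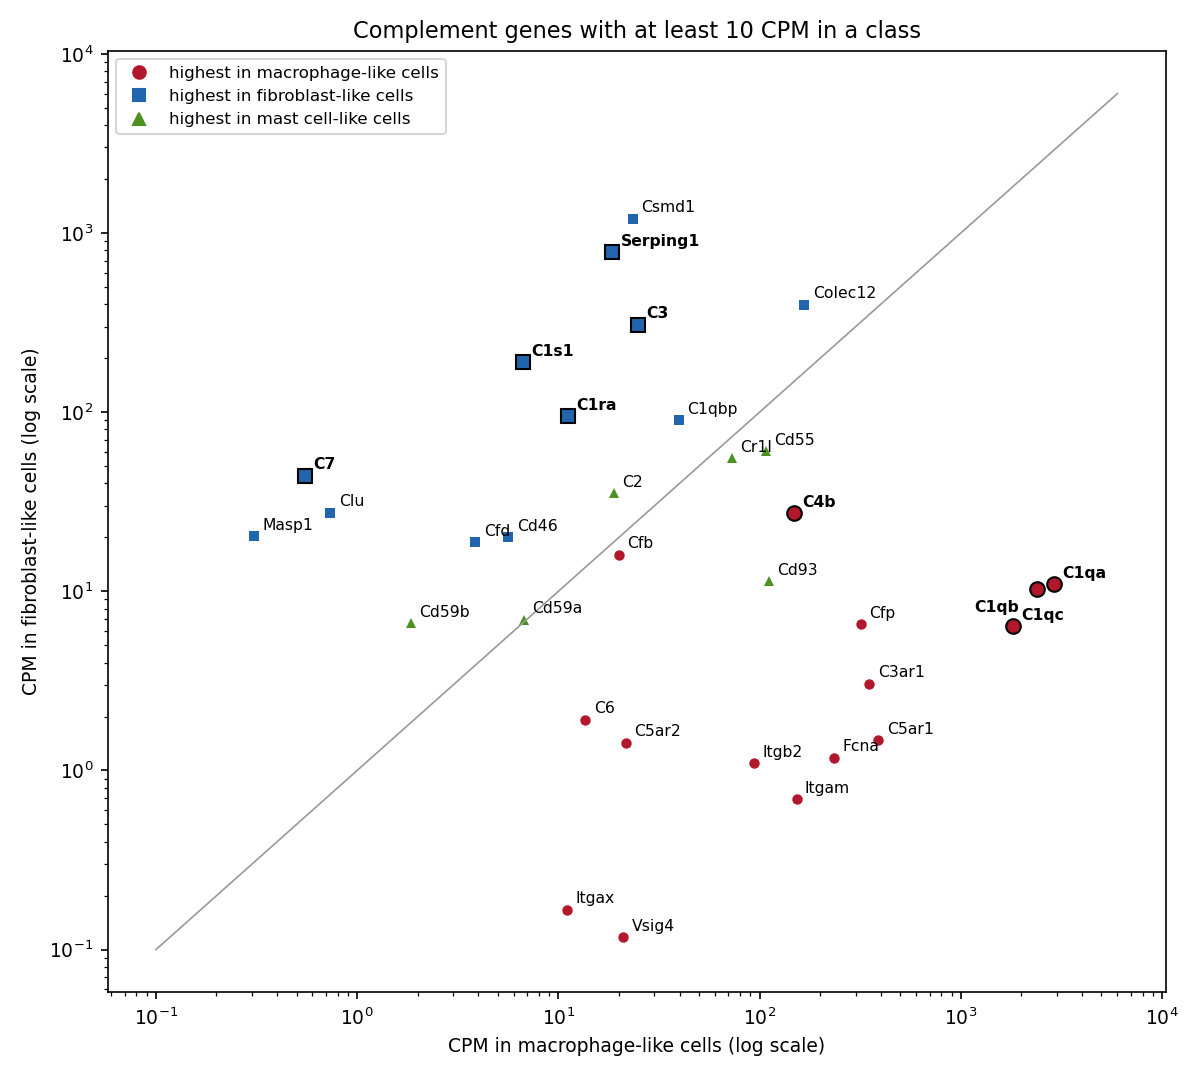
Level in the macrophage-like class against level in the fibroblast-like class for the reported complement genes with at least 10 CPM in a class, both in CPM on log axes, with the class of the highest level as symbol and the 9 chosen genes in bold with black edges. The C1q chains, C4b, Fcna, Cfp and the receptors C3ar1, C5ar1, Itgam and Itgb2 lie right of the line of equal levels, and C1ra, C1s1, C3, C7 and Serping1 left of it.

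For each gene the 3 genes most alike over the 10 clusters of at least 100 cells were named by Pearson's r of log2(CPM + 1). C1qa was most like Lyz2, Cd209g and Pf4, C1qb like Siglech, Cd209g and Tnfrsf11a, and C1qc like H2-Aa, Lyz2 and H2-Eb1. C4b was most like Cd38, Ap2a2 and Tmem37. C1ra was most like Fn1, Hspb11 and Tcea3, C1s1 like Adamts4, Dpep1 and Grem1, Serping1 like Col6a1, Col1a1 and Dcn, C3 like Fbln5, Il11ra1 and Ctsk, and C7 like Pknox2, Heyl and Sntg2. All r were 0.991 or higher, over clusters that share a library and of which 1 is macrophage-like and 1 fibroblast-like.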

How the data were processed

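The data are raw UMI counts per gene and barcode of 1 library, deposited by the authors as a filtered matrix, for which the file header names Cell Ranger 7.0.0. The build is mm10 and STAR, R 4.1.3 and Seurat 4.1.1 are also named, per the submitters' processing notes. The 3 tags, which held 21.92% of UMIs, were kept out of gene totals, and no barcode was listed more than once.

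Barcodes needed 500 genes, 1000 UMIs and at most 10% mitochondrial UMIs, which 33964 of 34813 met. Scrublet in scanpy 1.11.5 (threshold 0.5258) marked 4786 of these as doublets. Over all 34813 barcodes it called 13.88%, where 27.85% were expected at an assumed rate of 0.8% per 1000 barcodes. In addition, 2558 more barcodes with more than 1 tag were removed. This step, and leaving a cluster led by glial genes unnamed, were chosen after seeing the data. A tag was called at 2 times its background for Matrigel (545 UMIs) and Macrophages (491 UMIs), and at 1.4 times for Cafum (1451.5 UMIs). Background was the median over barcodes left after Scrublet. For Cafum only barcodes with at least 4 times the median of another tag entered it. Gene counts were scaled to 10000 per cell and log-transformed. A graph of 15 neighbours from 30 components of 2000 variable genes, with complement genes left out, was clustered by Leiden (leidenalg 0.10.2, resolution 0.5). A class was named where most markers of its list, and at least 3, passed and leading genes did not speak for another list. A marker passed at 50 CPM or more (UMIs per 1000000 gene UMIs) if it also met a fold rule. That rule asked for at least 4 times the marker's lowest level in any cluster of at least 100 cells. No annotation of cells by the authors was used here.

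Levels are summed counts in CPM with exact Poisson intervals, and shares after thinning to 5500 UMIs per cell have exact Clopper-Pearson intervals. Cells are not replicates, so no test was made. The members, lists, thresholds and alternatives were chosen with earlier results of these data known. All 9 members are named, other complement genes from 50 CPM in a class, of which 1 is not reported here, and the 3 genes most like each member. The calculation of calls and of likeness was tested on simulated data. Promoter windows (250 bases before to 50 after the start) are RefSeq sequences of the build named beside them, matched by symbol for 6 of 9 genes.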

Additional observations from a re-analysis of the deposited data

How the results depend on the processing

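No paired analysis was possible because the design has 1 library and no groups of samples. Over 13 alternatives of filtering, clustering, scaling and cell choice, each of the 9 genes kept its highest class in all 117 pairs of gene and alternative. Calls changed for C4b, which was not called with called doublets kept or at a fold of 10, for C1ra, which was not called at a fold of 10, and for C7, which was not called at a minimum of 50 CPM. C1qa ranged from 1642 to 3139 CPM in macrophage-like cells and from 11.05 to 44.1 CPM in fibroblast-like cells, and its lead was smallest where called doublets were kept. With called doublets kept, C1ra and C3 in macrophage-like cells were at 6.89 and 16.2 CPM. At 5% mitochondrial UMIs the macrophage-like class had 1107 cells and was named by its markers alone, since neutrophil genes were among its leading genes. The alternative without a fibroblast-like cluster led by Adipoq was not run, as no cluster met that rule, and cells with 5 or more Adipoq UMIs were left out in its place. That alternative, and those with only Scrublet doublets removed, without sub-clusters led by mast cell genes, with the glial-led cluster counted as fibroblast-like and with another seed for the sub-clusters, were chosen after seeing the data. At 5500 UMIs per cell, a share near that of a single UMI sets no order between classes.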
